A study of Mus musculus with 6 samples.

Results

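The lymphocytes that live between the epithelial cells of the gut were followed through 40 genes, named by the role of their products in T and natural killer (NK) cells, in crypt epithelium of the jejunum. Crypts of 3 Sox9-deficient mice (KO 1, KO 2 and KO 3) were set against those of 3 wild-type littermates (WT 1, WT 2 and WT 3). All 6 mice were 3 months old, of strain C57BL/6, and untreated as far as the labels say, with 1 single-colour Affymetrix array per mouse. The allele, any Cre driver and the cells in which Sox9 was removed do not appear in the labels. Values are log2 intensities of probe sets, the groups of short probes that read a transcript. Of the 40 genes, 38 had at least 1 probe set carrying that symbol alone, out of 18193 such genes on the array, and the probe set with the highest mean over the 6 arrays stood for each gene. Of these 38, 17 reached a mean of 4, the level below which probe sets lie near the floor of the method and were not tested, and 21 did not. The 2 genes with no probe set under their own symbol were Lck, which is not analysed here, and Cd244, whose probe sets are annotated as Cd244a and read means of 3.54 and 3.55, below that level.

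Intraepithelial lymphocytes are mostly T cells that sit above the basement membrane, held there by the integrin that Itgae encodes, which binds E-cadherin on epithelial cells. They are drawn to the small intestine through the chemokine receptor gene Ccr9, and they carry ready-made cytotoxic granules with granzymes. Many natural intraepithelial T cells carry CD8 as a pair of alpha chains and lack CD4, CD8 beta, CD2, CD5 and CD28. In a bulk preparation, fewer lymphocytes and less RNA per lymphocyte cannot be told apart. Sox9 itself read 2.44, 2.75 and 2.42 on KO 1 to KO 3, against 7.61, 5.96 and 5.84 on WT 1 to WT 3, on 1 of its 3 probe sets. The brightest of the 3 read 5.33, 6.34 and 5.76 on the KO arrays, against 6.23, 5.38 and 2.68 on the WT arrays, with the higher mean in KO (difference 1.05 ± 0.88, SE, limma adjusted p = 0.999), and the remaining one read 3.16 to 3.28 in KO and 3.18 to 3.53 in WT. The labels do not say which of them lie in the deleted part of the gene, so Sox9 bears out the labels on 1 probe set and not on the others.

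The lymphocyte genes above the filter moved together from mouse to mouse, and the mice that differed most were both wild type. WT 2 read highest of the 6 arrays for 12 of the 17 genes and WT 1 lowest for 15 of 17, where over all 9679 genes tested, each by its brightest probe set, WT 2 was highest in 17.1% and WT 1 lowest in 14.2%. Both held for 11 of 17 genes, against 2.88% of all genes. The 3 KO arrays mostly lay between these controls. They all read above WT 1 for 16 of 17 genes, above WT 3 for 15, and below WT 2 for 12. This pattern was noticed in the values, the genes share the same 6 RNA samples, and the counts describe these mice.

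On the scale of single genes, the KO arrays ranged over a median of 0.68 log2 units across the 17 genes and the WT arrays over 2.46. Over all genes tested the median ranges were 0.54 in KO and 0.50 in WT. A range of at least 2 among WT arrays occurred in 11 of 17 lymphocyte genes and in 2.32% of all genes, and the WT range was the wider in 16 of 17 lymphocyte genes and in 47.7% of all genes. The SD over the 6 arrays had a median of 0.87 (0.31 over all genes), and of 0.39 once each array's median over the 17 genes was taken out. Taking it out lowered the SD of 14 of the 17 genes. It raised that of Zap70 (0.81, against 0.16 before), Cd8a (0.64, against 0.24) and Lat (0.65, against 0.47). These 3 varied little to begin with, and the array median was taken out unscaled, so the rise does not show that they lacked the pattern. Cd8a and Lat, with 6-array ranges of 0.71 and 1.11, also had WT 2 highest and WT 1 lowest, and Zap70 did not.

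Between genotypes, 0 of the 17 genes passed limma's moderated test at an adjusted p of 0.05 and 0 had an unadjusted p under 0.05, against 0.0103% and 3.93% of all genes tested. The p-values were adjusted over all 18108 probe sets tested. Their differences, KO minus WT, ran from -0.12 (Cd160) to 1.53 (Ctsw), and each had a limma adjusted p of 0.999. The KO mean was the higher in 16 of 17 genes, against 56.2% of all genes, and the median difference was 0.63, against 0.04 over all genes. The genes share their samples, so this is not a count of 17 separate observations. Klrd1 and Nkg7, with WT means of 3.83 and 3.67, passed the filter of 4 through their KO means of 4.66 and 4.59. Over all 38 genes with a probe set the median difference was 0.10. Each of the 17 differences had a 95% interval that held 0, and these intervals reached down to -1.29 and up to 3.86.

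**Figure D1:**
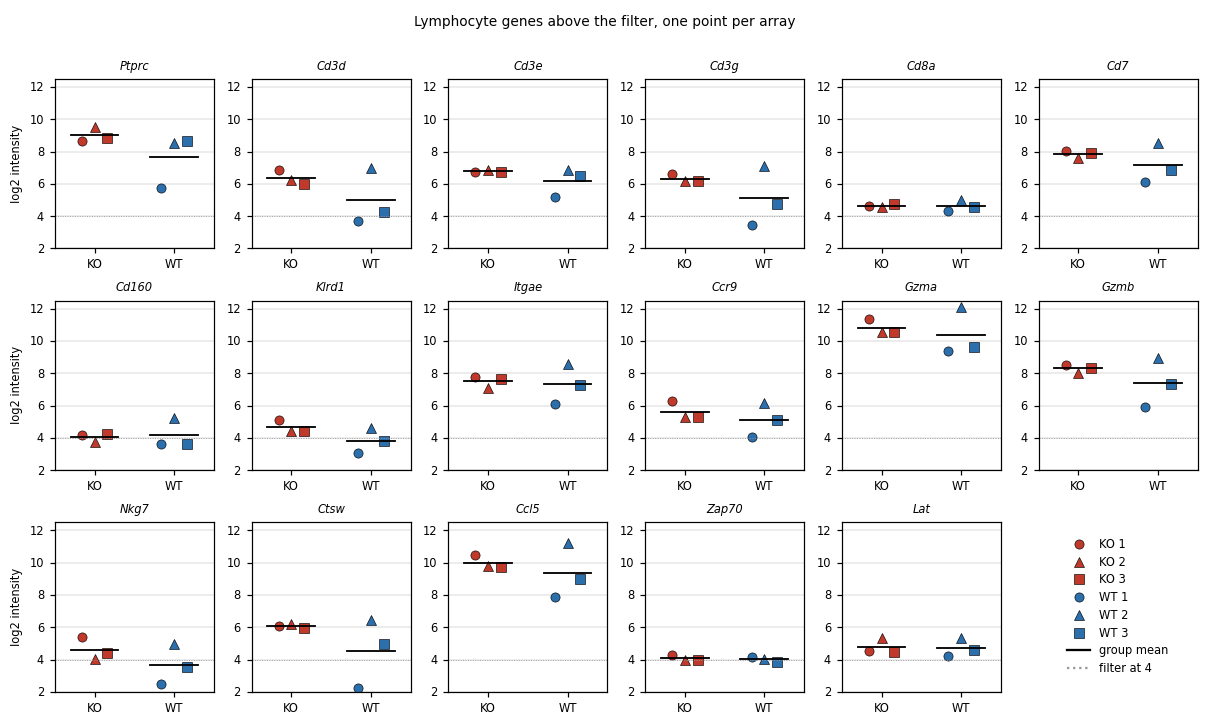
Log2 intensity (vertical axis) of the 17 lymphocyte genes above the filter, with a point for each array, KO left of WT, a black line at the group mean and a dotted line at the filter of 4. In most panels WT 2 (blue triangle) is at the top, WT 1 (blue circle) at the bottom, and the KO arrays lie close together between them.

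The size of the genotype difference hung on WT 1 and WT 2. Without WT 1 the median difference over the 17 genes was 0.15 and 10 of 17 had the higher mean in KO (55.3% of all genes in that fit). Without WT 2 it was 1.32 and all 17 had the higher mean in KO (55.4% of all genes). In that fit 9 of 17 had an unadjusted limma p under 0.05, against 2.98% of all genes, while 0 passed after adjustment. WT 2 had read highest for 12 of the 17, so leaving it out had to raise their differences and narrow their WT range. The count of 9 is therefore not read as a result. Without WT 3 the median was 0.53, with 13 of 17 genes higher in KO (55.2% of all genes). WT 3 stood apart in a sign of RNA quality, the 3′ minus 5′ log2 difference of the Gapdh control probe sets, which was 0.91, 0.58 and 0.37 on KO 1 to KO 3, against 0.61, 0.65 and 1.75 on WT 1 to WT 3. Without it 16 probe sets of the whole array were called, against 2 over the 6 arrays, and the part of RNA quality in the low reading of WT 3 was not tested. Leaving out single KO arrays gave medians between 0.53 and 0.74. The sexes of the mice are not labelled, but Xist, the RNA of the inactive X chromosome, read 12.29 to 13.35 on the KO arrays, against 13.17 on WT 3, 1.92 on WT 1 and 3.72 on WT 2. The Y-linked gene Eif2s3y read 2.84 to 2.95 on the KO arrays, against 2.86 on WT 3, 10.10 on WT 1 and 10.12 on WT 2. This signal is partly confounded with genotype, since Xist was high in all 3 KO mice and in 1 of 3 WT mice, and its part in KO minus WT was not tested. WT 1 and WT 2, alike in it, lay at opposite ends of most lymphocyte genes. Among the 4 arrays with high Xist signal the median difference was 0.84, over a single WT array, WT 3. That fit takes the spread of WT 3 from the KO arrays, and for 16 of the 17 genes the WT arrays had the wider range, so its p-values are too small. Its 6 of 17 genes at an unadjusted limma p under 0.05 (2.81% of all genes in that fit), with 0 after adjustment, are therefore not read as a result.

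**Figure D2:**
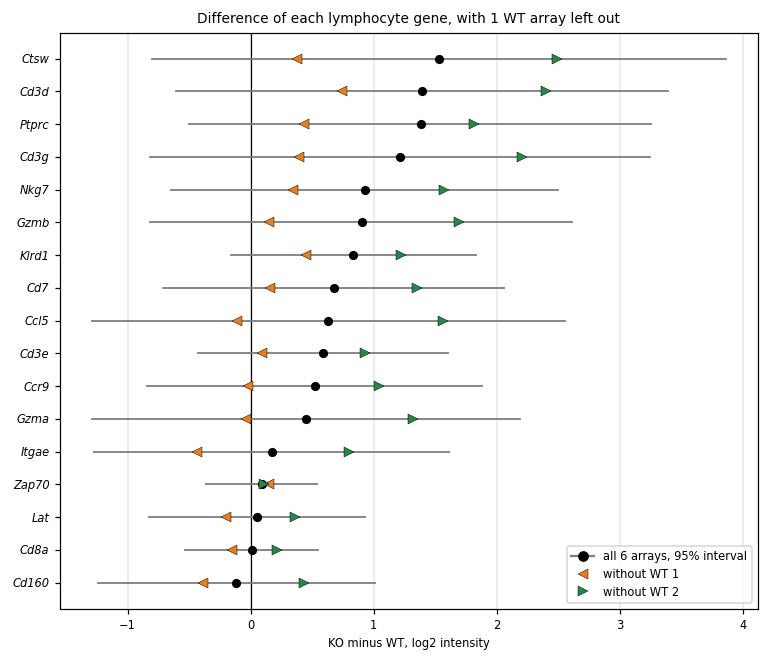
Difference KO minus WT in log2 intensity (horizontal axis) of the 17 genes, ordered by size, with the 95% interval of the limma fit over 6 arrays in grey. Orange triangles, with WT 1 left out, run from -0.44 (Itgae) to 0.74 (Cd3d) around a median of 0.15, and green triangles, with WT 2 left out, lie right of the black points, least so for Zap70.

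The T cell receptor complex was read through Cd3d, Cd3e and Cd3g, the CD3 chains that carry the receptor's signal, and through the common leukocyte phosphatase gene Ptprc (CD45). Cd3d read 6.85, 6.21 and 6.02 on KO 1 to KO 3, against 3.68, 6.99 and 4.25 on WT 1 to WT 3. Cd3g read 6.62, 6.20 and 6.16 on the KO arrays, against 3.47, 7.10 and 4.78 on the WT arrays. For both, all KO arrays lay above WT 1 and WT 3 and below WT 2, so the groups overlapped. The differences were 1.39 ± 0.83 (SE) for Cd3d and 1.21 ± 0.85 for Cd3g (limma adjusted p = 0.999 each; exact permutation p = 0.4 each, two-sided, where 3 mice against 3 cannot go below 0.1). WT 1 lay under 4 for both, near the floor, where distances are compressed.

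Cd3e was tight in KO, with 6.76, 6.83 and 6.72, against 5.19, 6.87 and 6.49 in WT. WT 1 again stood alone at the bottom, and the other 5 arrays spanned 0.38. The difference was 0.59 ± 0.43 (SE). Cd247, the zeta chain of the same complex, read between 3.60 and 4.01 in KO and between 3.42 and 3.67 in WT and was not tested. Ptprc read 8.68, 9.53 and 8.82 in KO, against 5.73, 8.50 and 8.67 in WT. It was the 1 gene of the 17 whose groups did not overlap with KO higher (5.54% of all genes did so), by a margin of 0.02 between KO 1 and WT 3, and 0 of the 17 had every KO array lower (3.99% of all genes). Its difference of 1.38 ± 0.78 (SE), a 2.59-fold higher KO mean, gave a limma adjusted p of 0.999 and an exact permutation p of 0.1. The difference was 0.43 without WT 1.

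Cd3g and Cd3d are neighbours read away from each other on mouse chromosome 9, with 1354 bases between their RefSeq starts. The 250 bases before each start are shown for this pair, whose array values ran alike, and for the granzyme genes Gzma and Gzmb. The sequences are RefSeq's, from GRCm38.p6, written 5′ to 3′ on the strand of the gene, and 26 of the 40 genes matched the table they come from. Capitals mark matches on either strand to the letters TGTGGT, the core bound by RUNX factors, or TGANTCA, the AP-1 site.
Cd3g (chr9:44980432-44980681, strand -): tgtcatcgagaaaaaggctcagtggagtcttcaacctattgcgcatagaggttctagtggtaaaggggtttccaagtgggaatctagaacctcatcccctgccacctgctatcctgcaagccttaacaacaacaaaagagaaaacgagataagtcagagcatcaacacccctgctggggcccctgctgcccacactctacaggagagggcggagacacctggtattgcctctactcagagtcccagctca
Cd3d (chr9:44981536-44981785, strand +): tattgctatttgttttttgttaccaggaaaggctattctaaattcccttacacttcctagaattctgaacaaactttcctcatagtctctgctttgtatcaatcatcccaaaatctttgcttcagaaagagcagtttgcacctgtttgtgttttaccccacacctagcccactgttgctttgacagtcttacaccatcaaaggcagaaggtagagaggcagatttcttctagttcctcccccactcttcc
Gzma (chr13:113100982-113101231, strand -): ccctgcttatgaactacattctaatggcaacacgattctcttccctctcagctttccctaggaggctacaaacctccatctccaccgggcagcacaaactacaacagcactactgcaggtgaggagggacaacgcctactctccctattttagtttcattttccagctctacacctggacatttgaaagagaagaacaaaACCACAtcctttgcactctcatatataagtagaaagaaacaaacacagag
Gzmb (chr14:56262335-56262584, strand -): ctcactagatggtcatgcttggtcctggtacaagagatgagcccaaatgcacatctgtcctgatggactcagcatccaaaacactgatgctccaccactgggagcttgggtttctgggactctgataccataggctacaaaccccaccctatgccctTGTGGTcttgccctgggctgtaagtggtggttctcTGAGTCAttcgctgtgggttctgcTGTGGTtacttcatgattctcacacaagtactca
Gzma has a RUNX core on the opposite strand at -50 to -45 from its start, and Gzmb has RUNX cores at -93 to -88 and -34 to -29 and an AP-1 match at -58 to -52. The windows of Cd3g and Cd3d hold neither. Over 27025 genes with a window, 14.2% hold the RUNX core and 6.87% the AP-1 letters, and among the 26 lymphocyte genes 12 and 1 do. Of the other motifs searched, the T-box letters GGTGTGA were in 3 of the 26 (3.31% of all windows), TATAAA in 2 (13.0%), an NF-kB site in 1 (1.17%) and TGACGTCA, a cyclic AMP response element, in 1 (1.62%). None of these 4 falls in the windows shown. A match to letters is no evidence of binding, and the arrays did not measure it.

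Of the co-receptor and surface genes, Cd7 and Cd8a were above the filter. Cd7, a surface glycoprotein of T and NK cells, read 8.03, 7.62 and 7.90 in KO, against 6.13, 8.52 and 6.87 in WT. All KO arrays fell between WT 3 and WT 2, and the difference was 0.68 ± 0.58 (SE; limma adjusted p = 0.999). Cd8a, the CD8 alpha chain, read 4.57 to 4.75 in KO and 4.31 to 5.02 in WT on its chosen probe set, with a difference of 0.01 ± 0.23 (SE). Its other tested probe sets differed by 0.11 and 0.68, and on all 3 the highest array was WT 2.

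The remaining surface genes lay near the floor. Cd8b1, the CD8 beta chain, read 2.44 to 2.48 in KO and 2.45 to 2.47 in WT, and Cd4 read 2.64 to 2.72 in KO and 2.66 to 2.70 in WT. Cd2, Cd5 and Cd28 had 6-array means of 2.60, 2.23 and 2.64. Cd96, a receptor for nectin-like ligands, averaged 3.23. Cd69, which keeps activated and resident T cells in tissue, read 3.65 on KO 3 and 3.07 to 3.13 on the other 5 arrays. A probe set at the floor does not show that its transcript was missing, since some probe sets respond poorly.

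Of the 3 NK receptor genes with a probe set under their symbol, Klrd1 and Cd160 lay just above the filter, with means of 4.25 and 4.10, and Klrk1 lay near the floor. Klrd1, which encodes CD94, had the smallest unadjusted p of the 17 genes (0.0873; limma adjusted p = 0.999). It read 5.11, 4.44 and 4.43 in KO, against 3.07, 4.60 and 3.82 in WT. WT 2 lay among the KO arrays, and the difference of 0.83 ± 0.42 (SE) was 0.45 without WT 1. Cd160, a receptor abundant on mouse intraepithelial lymphocytes, was the 1 tested gene with the lower KO mean. It read 4.20, 3.73 and 4.21 in KO, against 3.62, 5.26 and 3.61 in WT. The difference was -0.12 ± 0.47 (SE), WT 2 alone stood out, and without it the sign turned (0.43). The other tested probe set of Cd160 differed by -0.3, again with WT 2 highest. The activating receptor gene Klrk1 (NKG2D) read 2.12 to 2.14 on all 6 arrays. Ncr1, the defining receptor of NK cells and no member of the 40, averaged 2.31.

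The genes of gut homing and residence above the filter, Itgae and Ccr9, both read lowest on WT 1, and the highest array was WT 2 for Itgae and KO 1 for Ccr9. Itgae read 7.79, 7.10 and 7.63 in KO, against 6.11, 8.59 and 7.30 in WT. The KO mean of 7.51 ± 0.36 and the WT mean of 7.34 ± 1.24 (SD, n = 3 each) lay 0.17 ± 0.60 (SE) apart, and the second probe set, with a difference of 0.37, had the same highest and lowest array. Without WT 1 the difference for Itgae was -0.44. Ccr9 read 6.31, 5.28 and 5.28 in KO, against 4.05, 6.17 and 5.12 in WT (difference 0.52 ± 0.57, SE). The chosen probe set of Ccr9 is of the kind whose probes can bind other transcripts, and its other 4 probe sets had means of 2.25 to 3.63, so its level is uncertain. The chemokine receptor genes Cxcr3 and Cxcr6, of activated T cells, averaged 3.66 and 3.35 and were not tested. Cxcr3 read 3.30 to 3.72 in KO and 3.39 to 4.04 in WT.

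The cytotoxic effector genes above the filter spanned 2.72 to 4.22 log2 units over the 6 arrays. Gzma, the granzyme A gene, read 11.33, 10.57 and 10.58 in KO, against 9.40, 12.12 and 9.60 in WT. The KO arrays again lay between WT 3 and WT 2, and the difference of 0.45 ± 0.73 (SE; limma adjusted p = 0.999) was -0.04 without WT 1 and 1.32 without WT 2. Gzmb, the granzyme B gene, read 8.52, 8.01 and 8.35 in KO, against 5.91, 8.97 and 7.31 in WT, a difference of 0.90 ± 0.72 (SE). Without WT 1 it was 0.15. Ctsw, the cathepsin W gene of cytotoxic cells, read 6.08, 6.22 and 5.97 in KO, against 2.26, 6.48 and 4.94 in WT. The difference of 1.53 ± 0.97 (SE), a 2.89-fold higher KO mean, was the largest of the 17 genes over the 6 arrays, and WT 1, at the floor, carried most of it (0.38 without WT 1).

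Nkg7, a granule membrane protein gene, read 5.38, 4.01 and 4.39 in KO, against 2.49, 4.95 and 3.56 in WT. Its highest array was KO 1 and its lowest WT 1 (difference 0.93 ± 0.66, SE). The perforin gene Prf1 read 2.35 to 2.37 in KO and 2.36 to 2.37 in WT, flat across mice in which Gzma ranged over 2.72 log2 units. Gzmk averaged 2.51, with 3.05 on KO 1. Fasl, the ligand of the death receptor Fas, read 3.51 on WT 2 and 2.30 to 2.36 on the other 5 arrays. Of the secreted chemokine genes, Ccl5 (RANTES), stored by memory and intraepithelial T cells, read 10.49, 9.78 and 9.74 in KO, against 7.90, 11.23 and 9.0 in WT. The difference of 0.63 ± 0.80 (SE) was -0.11 without WT 1. Xcl1, which attracts cross-presenting dendritic cells, averaged 3.70.

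Of the signalling genes above the filter, Lat had WT 2 highest and WT 1 lowest and Zap70 had KO 1 highest and WT 3 lowest. Lat, the membrane adaptor below the T cell receptor, read 4.54, 5.32 and 4.44 in KO, against 4.22, 5.33 and 4.61 in WT, so KO 2 and WT 2 were level at the top. The kinase gene Zap70 stayed between 3.99 and 4.31 in KO and between 3.84 and 4.15 in WT, with WT 1 above WT 2. These 2 genes differed by 0.05 ± 0.37 and 0.09 ± 0.19 (SE). Il2rb, a chain of the interleukin-2 and interleukin-15 receptors, averaged 3.00, and the adaptor genes Sh2d1a and Sh2d2a 2.67 and 2.86. The transcription factor genes Tbx21 (T-bet) and Eomes averaged 2.23 and 2.66, and Runx3, a factor of CD8 T cells, 3.02. Over the 21 untested genes the differences ran from -0.40 (Fasl) to 0.21 (Il2rb), and 19 of the 21 were under 4 on all 6 arrays.

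Genes around these members were taken from lists chosen by function. Of 20 partners in T cell receptor signalling, 7 were above the filter, 0 passed limma's test over all probe sets, and 2 had an unadjusted p under 0.05, both higher in KO (1.96% of all genes were higher at that p). These were Ptpn6, the phosphatase SHP-1, with 10.26, 9.67 and 9.39 in KO, against 8.70, 8.85 and 8.93 in WT (difference 0.95 ± 0.26, SE, limma adjusted p = 0.999), and Csk, the kinase that restrains Src-family kinases, with 8.24, 8.64 and 8.75 in KO, against 8.11, 7.86 and 7.97 in WT (0.56 ± 0.20, adjusted p = 0.999). Neither gene is particular to T cells, and neither put WT 2 at the top. Coro1a (1.56) and Vav1 (0.69), regulators of the actin skeleton and of receptor signalling in blood cells, did not pass either. Every KO array lay above every WT array for Ptpn6, Csk, Coro1a and Plcg1, as for 5.54% of all genes. The groups overlapped for Vav1, Ptpn22 and Fyn. For Coro1a and Plcg1 the nearest KO and WT arrays were equal to 2 decimals (8.45 and 6.63). The list's median difference was 0.69, against 0.04 over all genes. That median is the difference of Vav1 itself. Vav1 passed the filter of 4 through its KO mean of 4.62, with a WT mean of 3.92, so the filter favours KO there.

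Of 30 other T and NK cell genes, many of them shared with other leukocytes, 11 were above the filter and 0 passed. The median difference was 0.79, which is that of Cd48. Cd48 and Gimap6, with WT means of 3.9 and 3.97, passed the filter through their KO means of 4.69 and 4.98. The filter thus favours KO in this list too. Gimap1, a GTPase gene of lymphocyte survival, read 8.23, 7.76 and 8.0 in KO, against 7.51, 7.09 and 7.18 in WT (difference 0.74 ± 0.21, SE, limma adjusted p = 0.999). It was the 1 gene of the 11 at an unadjusted p under 0.05 (1.96% of all genes were higher in KO at that p). Its groups did not overlap, nor did those of Rac2, with 6.81 on KO 3 and 6.79 on WT 2. Of all genes, 5.54% had every KO array higher. Rac2 (0.66), Cd53 (1.89) and Gimap6 (1.01) followed, and WT 1 was lowest for all 3. WT 1 was the lowest array for 8 of the 11 and WT 2 the highest for 0, so these broader leukocyte genes shared the low reading of WT 1 and not the high reading of WT 2.

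The epithelial side of the contact was read through 21 ligand and receptor genes, 9 of them above the filter, with 0 past limma's test, 0 at an unadjusted p under 0.05 and a median difference of -0.11. Il15, the cytokine that keeps intraepithelial lymphocytes alive, read 8.17, 6.79 and 7.35 in KO, against 5.82, 7.10 and 7.13 in WT (difference 0.76 ± 0.48, SE). WT 1 was lowest here, as for the lymphocyte genes. Il15ra, which presents it, read 4.34, 4.10 and 4.53 in KO, against 4.65, 5.24 and 4.51 in WT (-0.48 ± 0.25). Ccl25, the ligand of CCR9, read 14.01 to 14.22 in KO and 14.03 to 14.34 in WT. Cdh1, the E-cadherin gene, differed by -0.35, and the butyrophilin-like gene Btnl2 by 0.47, or by -0.02 without WT 3. WT 2 was the highest array for 5 of the 9 genes.

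Lymphocyte content per array was summarised as the median over the 17 genes of the deviation from each gene's mean. It was 0.67, 0.11 and 0.21 on KO 1 to KO 3, against -1.32, 1.01 and -0.43 on WT 1 to WT 3, so that the KO arrays spanned 0.56 and the WT arrays 2.33 log2 units around KO and WT means of 0.33 and -0.25. KO 2 and KO 3 were level, and both fell in the wide gap between WT 3 and WT 2. The log2 of the summed linear intensity, which Gzma and Ccl5 dominate, gave 12.53, 12.05 and 11.99 in KO, against 10.38, 13.17 and 11.25 in WT, the same order of the WT arrays.

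Markers of other cells did not all follow. The summary for 10 epithelial genes stayed between -0.17 and 0.13 in KO and between 0.03 and 0.09 in WT. For 11 villus enterocyte genes it was 0.12 to 0.22 in KO, against -0.68 on WT 1, 0.11 on WT 2 and -0.03 on WT 3. For 10 genes of the crypt base and dividing cells it was -0.27 to 0.09 in KO, against 0.32 on WT 1, -0.63 on WT 2 and 0.33 on WT 3. By this summary WT 1 was the lowest array for villus and lymphocyte genes, and WT 2 the lowest for crypt genes and the highest for lymphocyte genes. Of the 11 villus genes 0 passed limma's test, and 3 (Treh, Apoa4 and Alpi) were higher in KO at an unadjusted p under 0.05 (1.96% of all genes were). Of the 10 crypt genes 0 passed, and 2 (Mmp7 and Lyz1) were lower in KO at that p, which 3.93% of all genes reached in either direction. The part of these shifts in the lymphocyte values was not tested.

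Among other leukocytes, WT 1 was the lowest array for 9 of 12 myeloid genes and 2 of 4 plasma cell genes, but for 0 of 3 B cell genes and 0 of 3 mast cell genes. The summary for 12 myeloid genes was 1.77, -0.41 and 0.78 in KO, against -1.66, 0.18 and 0.46 in WT. For 4 plasma cell genes it was 2.77, 0.50 and -0.48 in KO, against -1.37, -0.47 and -0.09 in WT. For 3 B cell genes it was 0.59, 1.98 and -1.07 in KO, against -1.04, -0.86 and 0.07 in WT. Pou2af1 and Mzb1 of the plasma cell list and Cd79a of the B cell list read under 4 on every WT array. They passed the filter through their KO arrays, so the filter itself favours high KO summaries for these lists. WT 2 did not have the highest summary for the myeloid, plasma cell or B cell list. Of 8 mast cell genes 3 were above the filter, and the others, Cpa3, Fcer1a, Ms4a2, Tpsb2 and Hdc, averaged 2.21 to 2.86, near the floor. WT 2 had the highest summary for the 3 mast cell genes, with -0.45 to -0.29 in KO, against 0.30 on WT 1, 1.32 on WT 2 and -0.33 on WT 3. It was the highest array for 2 of the 3 and the lowest for Kit, the stem cell factor receptor gene. Among these, the protease gene Mcpt1 read 7.37, 6.85 and 7.44 in KO, against 8.39, 9.27 and 7.47 in WT (difference -1.16 ± 0.46, SE, limma adjusted p = 0.999). Summed on the linear scale, in log2, plasma cell genes reached 11.39 to 14.19 in KO and 11.38 to 12.26 in WT, and B cell genes 6.18 to 8.60 in KO and 6.81 to 7.25 in WT. Mast cell genes reached 8.69 to 9.06 in KO and 9.28 to 9.93 in WT, and myeloid genes 13.47 to 14.63 in KO and 15.09 to 15.24 in WT. The largest terms of the myeloid sum were Cd74, which gut epithelium can also express, and Lyz2, a close relative of the Paneth cell lysozyme gene Lyz1. At an unadjusted limma p under 0.05, the myeloid, plasma cell and mast cell lists each had 1 gene lower in KO and 0 higher. These were Lyz2 (difference -1.13, limma adjusted p = 0.443), Sdc1 (-0.55, adjusted p = 0.999) and Mcpt1. Of all genes, 3.93% reached that p in either direction. Of the innate lymphoid and helper T cell list 0 of 8 measured genes, Foxp3, Gata3 and Il7r among them, were above the filter, of the red blood cell list 0 of 3, of the endothelial list 1 of 10 and of the stromal list 1 of 12.

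**Figure D3:**
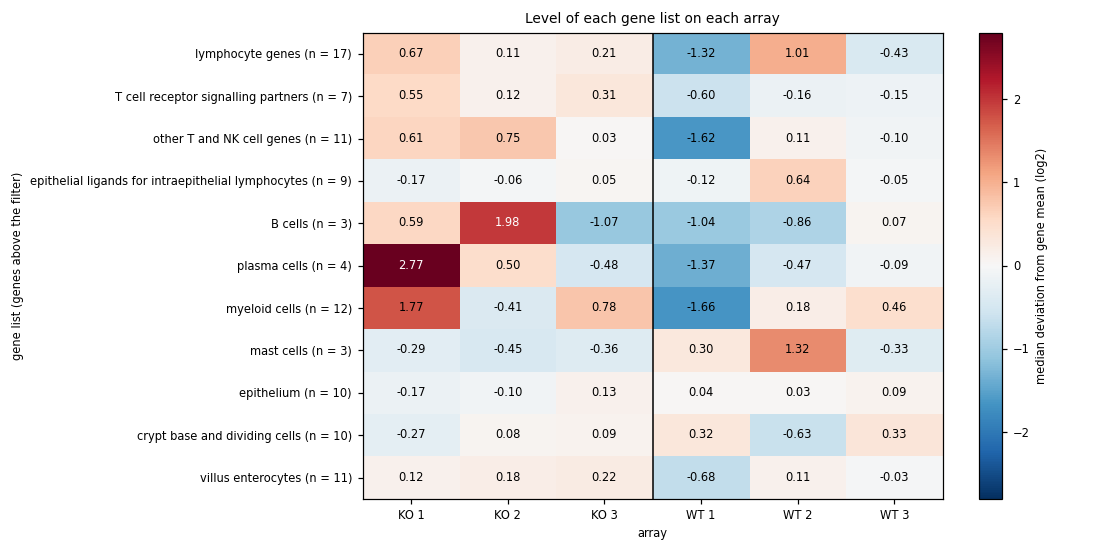
Median deviation from the gene mean, in log2 units, of each gene list (rows, with the number of genes above the filter) on each array (columns, KO left of the black line and WT right of it), red above and blue below 0. The lymphocyte genes run from -1.32 on WT 1 to 1.01 on WT 2, while the epithelial list stays within 0.17 of 0.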

How the data were processed

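Total RNA was labelled with biotin for 1 Affymetrix array per mouse, per the labels' protocols. The deposited values are log2 intensities, and the submitters' processing notes name GCRMA and limma, with no version or setting stated. GCRMA pulls dim probe sets to a common floor, which compresses differences there. Of 45101 probe sets, 64 array controls were left out, and 34945 carried 1 symbol, 932 several and 9160 none. Columns of other samples numbered 0. Arrays carry no depth, and 3 per group limits the precision.

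The 18108 probe sets whose 6-array mean reached 4 entered a fit of KO minus WT in limma 3.58.1 (R 4.3.3; lmFit, eBayes, two-sided), with Benjamini-Hochberg adjustment over all of them. Shares of all genes take the brightest probe set of each of 9679 genes. On simulated data for this comparison (18108 probe sets) the fit recovered 13.4% of changes of 1 log2 unit, 58.5% of 2 and 89.8% of 4. The changed probe sets were picked at random, and each probe set was drawn independently. The lymphocyte genes moved together and varied more among WT arrays (median SD of 1.23, against 0.26 over all genes). These rates therefore do not apply to them.

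The members, lists and naming rule were chosen with earlier results of these data known. Values on each array are given for the 14 genes of highest mean (Cd8a as ranges), the 6 of smallest p in each direction and any with groups apart. For the lists the rule took up to 4 genes of smallest p. Some of these have values on each array, and others a difference alone or no value. Other genes are given by level. Same-numbered KO and WT arrays did not deviate together (correlations of -0.05, -0.29 and 0.03 over 18108 probe sets), so numbers were not taken as pairs. Alternatives were filters, normalizations, priors, array weights, probe set choice, a replicate block and each array left out; the 4 arrays of high Xist signal were chosen after seeing the data.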

Additional observations from a re-analysis of the deposited data

How the results depend on the processing

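No lymphocyte gene passed in limma at an adjusted p of 0.05 under any of the alternatives run, and no gene of the other lists did. The count of probe sets called over the whole array, 2, was 0 with no filter, 1 with a filter at 6, 4 after quantile normalization, 11 with array weights, 0 with a replicate block and 0 on the 4 arrays of high Xist signal, and it ran from 0 to 16 with each array left out. The count of lymphocyte genes at an unadjusted limma p under 0.05, 0, was 1 with array weights (6.41% of all genes in that fit). It ran from 0 to 9 with each array left out, and the 9, without WT 2, are not read as a result. The number with the higher KO mean, 16 of 17, was 26 of 38 with no filter (40.3% of all genes) and 7 of 7 with a filter at 6 (56.2%), and ran from 10 to 17. The replicate block left the median difference at 0.63 and changed no call of a lymphocyte gene.

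The median difference of 0.63 was 0.61 to 0.72 under the filter at 6, both normalizations, the other prior, array weights and both other probe set choices, was 0.10 with no filter, and ran from 0.15 to 1.32 with each array left out. The difference in content per array, 0.58, ran from 0.09 to 1.25 likewise, and was 0.11 with all 38 genes, 0.66 as a mean, 0.59 from summed intensities and 0.86 from the CD3 and zeta chains alone.

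Signs turned for Cd8a after quantile normalization (-0.01), Zap70 with array weights (-0.01) and Cd160 on the 4 arrays (0.44). With each array left out, Cd8a ran from -0.15 to 0.21, Cd160 from -0.40 to 0.43, Itgae from -0.44 to 0.80, Ccr9 from -0.02 to 1.04, Gzma from -0.04 to 1.32, Ccl5 from -0.11 to 1.56, Zap70 from -0.02 to 0.15, Lat from -0.23 to 0.36 and Btnl2 from -0.02 to 0.91. The causes were not tested. Probe sets near the floor limit what can be said of 21 of the 38 genes.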
